A study of Homo sapiens with 6 samples.

Results

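The NRF2 gene module comprises 41 genes, fixed as a list of symbols: the transcription factor NRF2 and its partners, the enzymes of glutathione and thioredoxin metabolism, enzymes that supply NADPH, iron storage chains, aldo-keto reductases and a few detoxification targets. All 41 symbols were found among the 24976 symbols of the count table, and all 41 passed the filter on low counts. The libraries came from LN229, an established adherent human glioblastoma line, as bulk total RNA. In 3 cultures GDH1, the mitochondrial glutamate dehydrogenase encoded by GLUD1, was knocked down with small interfering RNA and a lipofectamine reagent for 24 h. The 3 control cultures are labelled wild type. The protocol mentions a negative control mixture, and the labels do not say whether the controls received transfection reagent or whether the 3 knockdown cultures shared 1 siRNA. The design text calls the cultures biological replicates, so p-values measure only the spread between 3 cultures of 1 line in each group.

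NRF2, encoded by NFE2L2, is a transcription factor that KEAP1 holds for degradation and that escapes KEAP1 when reactive cysteines of KEAP1 are modified. In the nucleus it pairs with a small MAF protein on the antioxidant response element, where BACH1 can compete with it. Its known targets make glutathione from cystine and glutamate, reduce thioredoxin, supply NADPH and clear quinones, aldehydes and haem. Glutamate dehydrogenase converts glutamate to 2-oxoglutarate, and glutamate is also a substrate of glutathione synthesis. In bulk RNA, fewer cells of a type and less RNA per cell cannot be told apart.

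Each library held 31201100 to 35619614 counts. GLUD1, at chromosome 10, 87050202 to 87094843 on GRCh38.p14, had 727, 877 and 933 counts in knockdown replicates 1 to 3, against 3048, 2689 and 2813 in control replicates 1 to 3. After TMM scaling, which evens out library composition with a trimmed mean, this was 24.6 ± 3.22 CPM (counts per 1e6 counts) in the knockdown and 86.5 ± 1.59 CPM in controls (SD, n = 3 each), so that GLUD1 fell by 71.6% (adjusted p = 7.46e-07, edgeR's quasi-likelihood test with Benjamini-Hochberg adjustment, used for every adjusted p here). The 8 listed glioblastoma line markers summed to 6122 to 7044 CPM in knockdown and 5822 to 5998 CPM in control libraries, most of it from VIM, and went both ways. VIM, CD44 and SOX2 rose (log2 fold changes 0.21, 0.44 and 0.78), S100B, FABP7 and OLIG2 fell (-1.13, -1.45 and -1.10), and NES and GFAP did not pass. GFAP, the astrocyte filament, had at most 23 counts in a knockdown library. Among markers of other cell types, AIF1, CDH5, CDH1 and STMN2 had 0 counts in every library. The 4 leukocyte markers summed to 26.8 to 29.4 CPM in the knockdown and 13.6 to 16.9 CPM in controls, nearly all from CD68, and PTPRC, the marker of all leukocytes, had at most 13 counts. Neuronal markers summed to 39.6 to 49.4 CPM in the knockdown and 50.6 to 53.9 CPM in controls, epithelial ones to 35.6 to 44.8 CPM in the knockdown and 44.1 to 46.1 CPM in controls, and endothelial ones to at most 3.05 CPM. The part of these marker differences in the results was not tested. The knockdown libraries 2 and 3 favoured transcripts of low GC content: the level of the lowest GC bin minus that of the highest was 0.05, 0.47 and 0.75 log2 units in knockdown replicates 1 to 3 and -0.12, 0.14 and -0.03 in control replicates 1 to 3. Across genes, Spearman's rho between log2 fold change and GC content was -0.45 over the 12965 tested genes with a known GC content and -0.303 over the 41 members, where genes share libraries and are not replicates. Values corrected for the GC content and length of transcripts are therefore given where they change a call or move a called value by more than 1.5 times, and the part of GC content in the uncorrected values was not tested otherwise.

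After GDH1 knockdown the module split into 2 directions. GCLM, SRXN1, TXN and TXNRD1, which serve glutathione synthesis and the thioredoxin system, were 28.0 to 40.4% higher, whereas NQO1 fell by 44.0%, AKR1C2 fell by 37.9%, AKR1C1 fell by 34.9%, GPX1 fell by 29.3% and PGD fell by 24.2%. The fall of GPX1 was smaller with GC correction, with a log2 fold change of -0.17 against -0.50 without it. At an adjusted p under 0.05, 8 of the 41 members rose, 10 fell and 23 did not pass, so 43.9% were called, against 26.1% of the 15638 genes tested and 31.3% of the 10876 genes at least as abundant as the lowest member. The background for each direction was 13% of genes higher and 13.1% lower, against 19.5% and 24.4% of the members. Among the 10876 genes at least as abundant as the lowest member, 15.6% were higher and 15.7% lower. The median absolute log2 fold change was 0.21 over the members and 0.23 over all genes tested, which include genes less abundant than any member. The median log2 fold change was -0.05 over the members and -0.0033 over all genes. In 24 members the 3 knockdown libraries did not overlap the 3 controls, 10 above and 14 below, against a background of 42% of genes not overlapping, 21.6% above and 20.5% below. Of the 18 calls, 9 were kept under each of the 16 other settings tried, those of the 9 genes named above with their percentages. Over all genes 1781 of 4085 calls, or 43.6%, were kept in this way, against 50% of the members' calls. With GC correction 15 of the 18 calls were kept, or 83.3% against 86.6% of all genes' calls. Under it 13 members rose and 11 fell, against a background of 19.3% of genes higher and 15.2% lower. The number of members called changed on leaving out single libraries, which also leaves fewer cultures for the test. A call lost in this way need not mean a changed log2 fold change. Of the members, 4 rose without knockdown replicate 2 and 5 without control replicate 1 or control replicate 2. Falls numbered 6 without knockdown replicate 2 or control replicate 2 and 5 without control replicate 1 or control replicate 3.

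**Figure D1:**
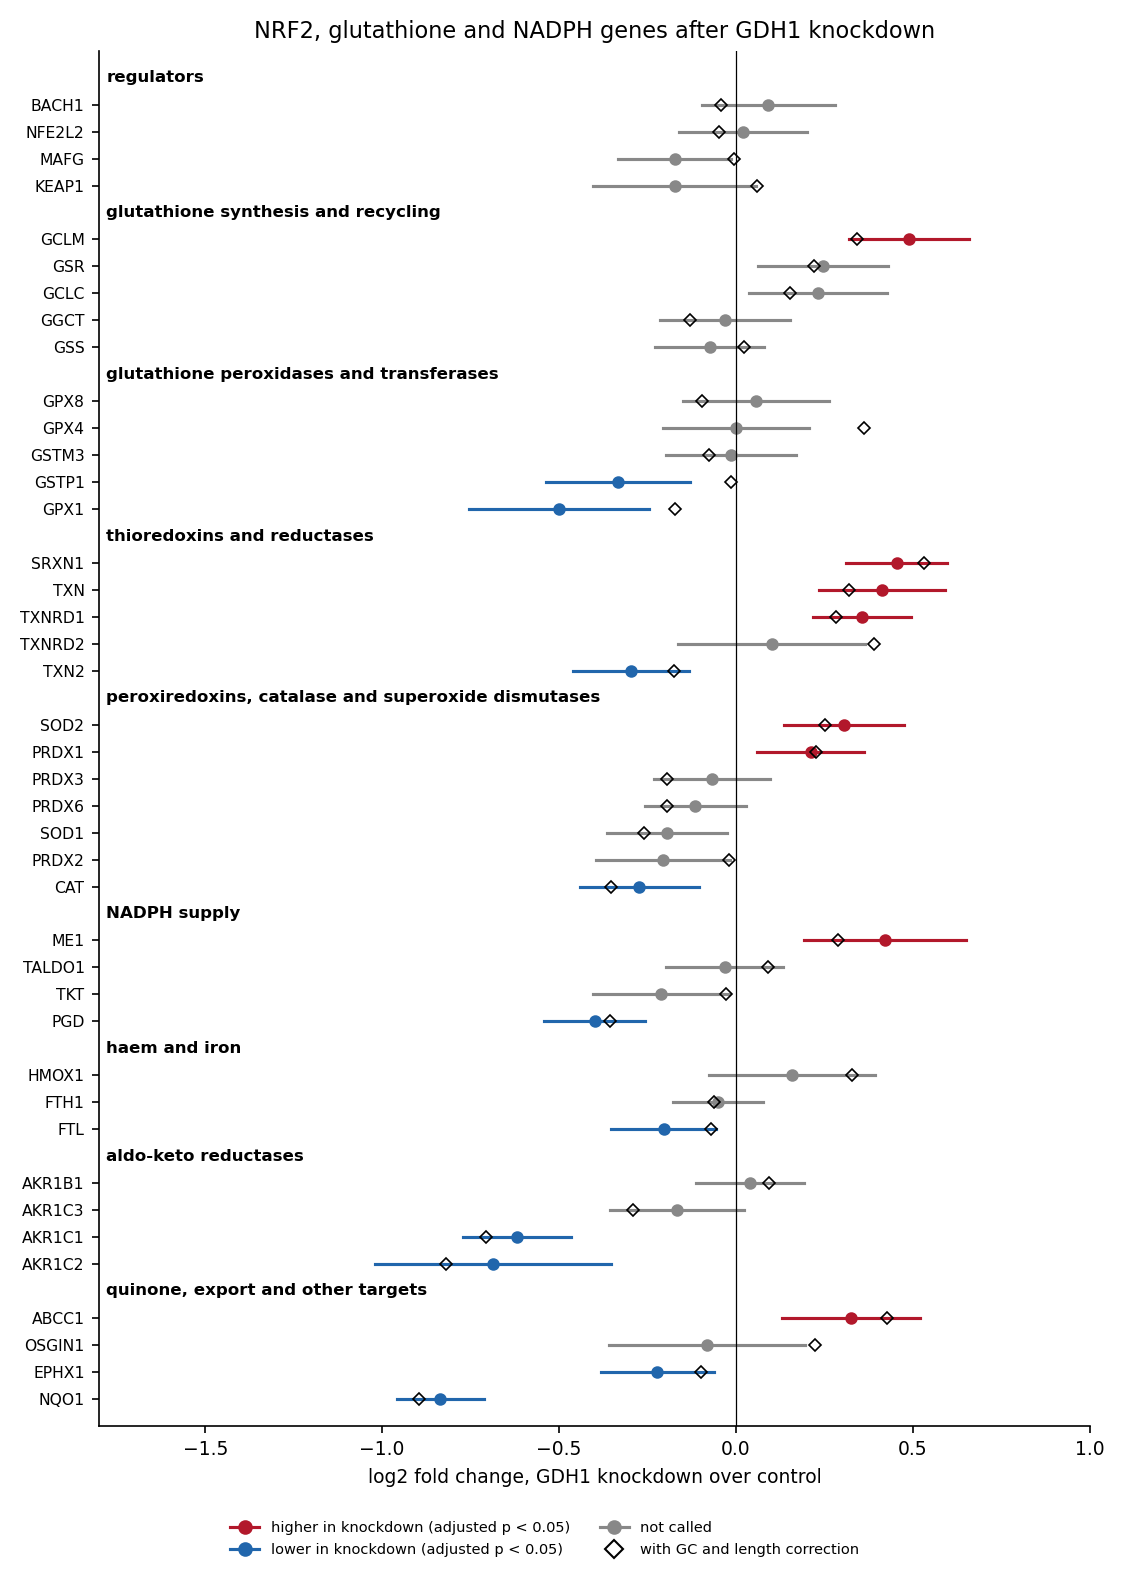
Log2 fold change of each member, GDH1 knockdown over control (x axis, positive means higher in the knockdown), grouped by role; circles and bars give the estimate and its 95% confidence interval, red for the 8 genes that rose, blue for the 10 that fell and grey for the 23 not called, and open diamonds give the value after GC and length correction. Within most roles both directions or uncalled genes stand side by side, and the diamonds of GC-rich genes such as GPX4, TXNRD2 and GSTP1 lie to the right of their circles.

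None of the 4 regulators passed the test. NFE2L2 itself had 174, 190.2 and 208 CPM in knockdown replicates 1 to 3, against 175, 201 and 187 CPM in control replicates 1 to 3. The groups overlapped, and the log2 fold change of 0.02 had a 95% interval of -0.16 to 0.20. KEAP1, the adaptor that targets NRF2 for ubiquitination, had a log2 fold change of -0.17 (-0.40 to 0.06), and BACH1, the competing repressor, one of 0.09 (-0.10 to 0.28). MAFG, a small MAF partner, had all knockdown libraries below the controls, at 182, 162 and 157 CPM in the knockdown and 193, 184 and 188 CPM in controls, without passing (log2 fold change -0.17, adjusted p = 0.103). Without knockdown replicate 1, which had the smallest GC gap of the 3 knockdown libraries, KEAP1 and MAFG were called lower (-0.30 and -0.23, adjusted p = 0.00415 and 0.00607). With GC correction neither passed, with log2 fold changes of 0.06 for KEAP1 and -0.0047 for MAFG. These are transcript levels, and NRF2 is controlled mainly through protein stability, which was not measured.

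In glutathione synthesis and recycling, GCLM was the member that rose. GCLM encodes the modifier subunit of glutamate-cysteine ligase, the rate-limiting enzyme of glutathione synthesis. It had 95.6, 105 and 112 CPM in knockdown replicates 1 to 3, against 74.4, 74.5 and 74.1 CPM in control replicates 1 to 3. Every knockdown library was above the controls, which lay within 1 CPM of each other. The log2 fold change was 0.49 (SE 0.08, adjusted p = 9.37e-04). The catalytic subunit GCLC lay above the controls in every knockdown library without passing, at 42.7, 39.1 and 36.8 CPM in the knockdown and 32.5, 33.2 and 35.3 CPM in controls (log2 fold change 0.23, 95% interval 0.04 to 0.43, adjusted p = 0.0778), and was called without knockdown replicate 3 (0.28, adjusted p = 0.0398). GSR, which reduces oxidised glutathione with NADPH, had 107, 121 and 121 CPM in the knockdown and 88.9, 103 and 103 CPM in controls. These groups did not overlap, and the adjusted p of 0.0510 lay just past the threshold. GSR was called under 8 of the 16 other settings, among them the GC correction (0.22, adjusted p = 0.00720). GSS, which adds glycine to complete glutathione, and GGCT, which breaks down gamma-glutamyl peptides, had intervals of -0.23 to 0.08 and -0.22 to 0.15.

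The thioredoxin arm held 3 of the 8 rises. Thioredoxin reduces disulfides in proteins, and thioredoxin reductase, a selenoenzyme, recharges it with NADPH. TXN, the cytosolic thioredoxin, had 234, 257 and 283 CPM in knockdown replicates 1 to 3, against 180.4, 199.6 and 202 CPM in control replicates 1 to 3 (log2 fold change 0.41, SE 0.08, adjusted p = 0.00380). TXNRD1, its cytosolic reductase, had 486, 507 and 518 CPM in the knockdown and 380.3, 413 and 388 CPM in controls (0.36, SE 0.06, adjusted p = 0.00195). SRXN1, sulfiredoxin, which repairs overoxidised peroxiredoxins, had 166, 168 and 159.5 CPM in the knockdown and 121, 118 and 121 CPM in controls (0.45, SE 0.07, adjusted p = 5.16e-04). In all 3 genes the lowest knockdown library exceeded the highest control.

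Of the mitochondrial forms, TXN2 fell and TXNRD2 did not pass. TXN2, the mitochondrial thioredoxin, fell to 91.4, 91.4 and 80.7 CPM in knockdown replicates 1 to 3, against 109, 105 and 109 CPM in control replicates 1 to 3 (log2 fold change -0.30, adjusted p = 0.0138). Its call was lost without control replicate 1 or control replicate 3 (adjusted p = 0.0637 and 0.0739), and its log2 fold change after GC correction was -0.18 (adjusted p = 0.00411). TXNRD2, the mitochondrial reductase, had 40.6, 33.2 and 29.4 CPM in the knockdown and 32.6, 29.1 and 34.6 CPM in controls, which overlapped (0.10, adjusted p = 0.581), and was called higher only with the GC correction, alone or with a replicate block (0.39, adjusted p = 1.03e-04 with the correction alone). The count ratio of TXN to TXN2 inside a library, which needs no scaling between libraries, averaged 2.96 ± 0.49 in the knockdown and 1.80 ± 0.12 in controls (SD, n = 3 each), which restates the 2 calls. This ratio is not corrected for GC content and was 2.57, 2.81 and 3.51 in knockdown replicates 1 to 3. After that correction the log2 fold change was 0.32 for TXN and -0.18 for TXN2. TXN has 7 pseudogenes by symbol in RefSeq, and reads shared with such copies make its value uncertain.

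**Figure D2:**
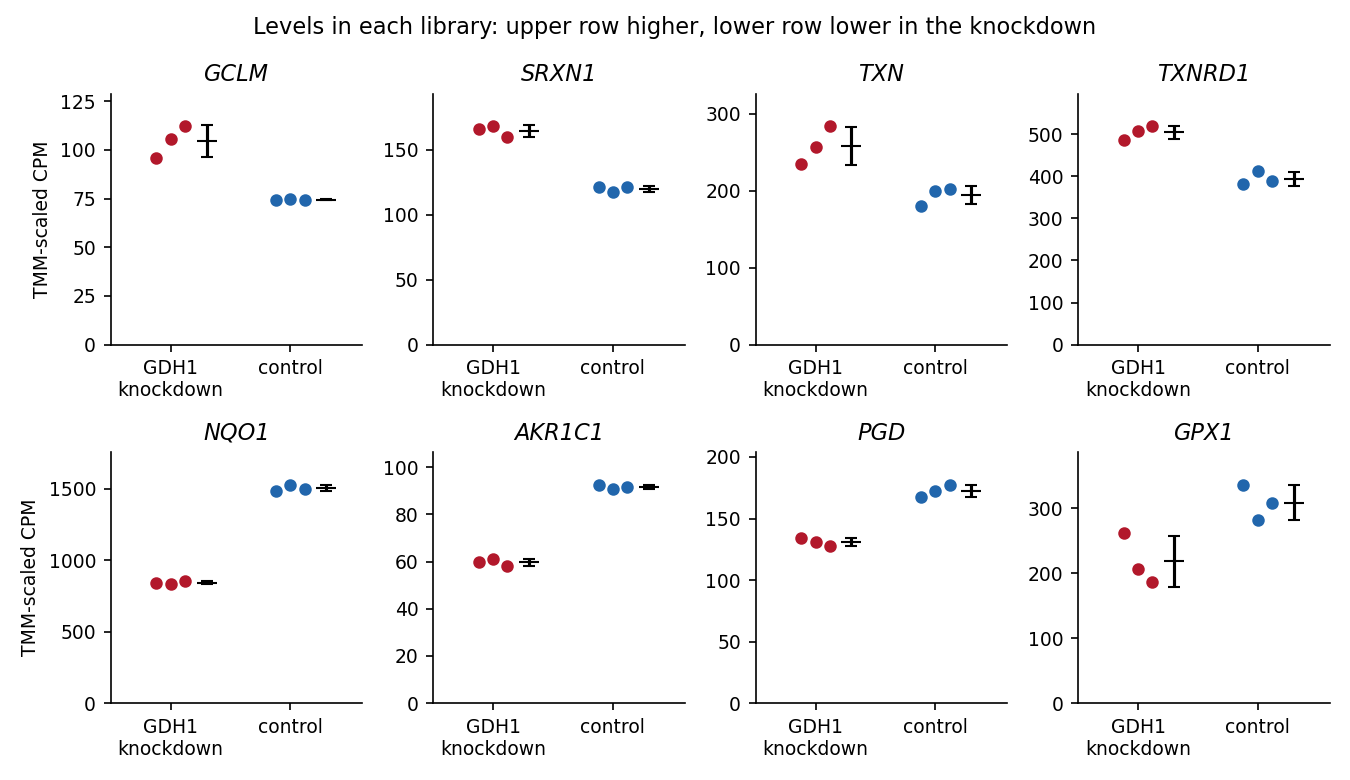
TMM-scaled CPM (y axis, from 0) of 4 genes that rose (upper row) and 4 that fell (lower row), with a point for each of the 3 GDH1 knockdown libraries (red, left) and 3 control libraries (blue, right) and a black mark with bars for the mean ± SD. In each panel the red and blue points do not overlap. NQO1 lies between 833 and 853 CPM in the knockdown and between 1484 and 1527 CPM in controls.

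NQO1 showed the largest fold and the smallest adjusted p among the 41 members. It encodes the NAD(P)H quinone dehydrogenase that reduces quinones to hydroquinones and is the textbook reporter gene of NRF2 activity. The gene lies at chromosome 16, 69709401 to 69726560. Its raw counts were 29311, 27910 and 29834 in knockdown replicates 1 to 3, against 51216, 48011 and 49191 in control replicates 1 to 3. In CPM these were 842 ± 10.3 in the knockdown and 1503 ± 21.8 in controls (SD, n = 3 each), so that NQO1 fell by 44.0% (log2 fold change -0.84, SE 0.06, adjusted p = 2.05e-06). NQO1 took 0.0823 to 0.0856% of all counts in knockdown libraries and 0.149 to 0.154% in controls. The count ratio of TXNRD1 to NQO1 in a library averaged 0.598 ± 0.018 in the knockdown and 0.262 ± 0.0074 in controls. For SRXN1 to NQO1 it averaged 0.195 ± 0.0076 in the knockdown and 0.0799 ± 0.0025 in controls. The ratio of GCLM to NQO1 averaged 0.124 ± 0.0092 in knockdown and 0.0495 ± 0.00065 in control libraries. These ratios (SD, n = 3 each) pair genes already called in opposite directions, so they restate those calls on a scale that needs no library scaling and add no test.

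**Figure D3:**
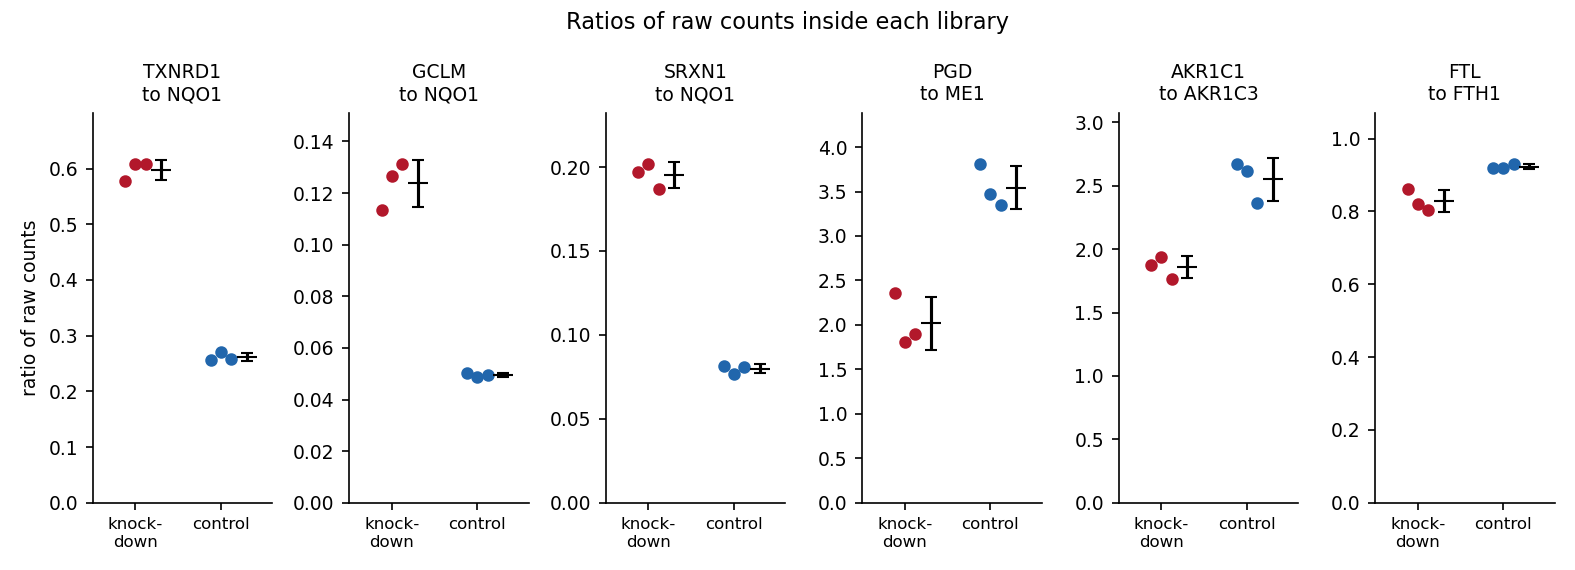
Ratio of raw counts of 2 members inside each library (y axes, from 0), with 3 GDH1 knockdown libraries (red, left) and 3 control libraries (blue, right) in each panel and the mean ± SD in black. TXNRD1, GCLM and SRXN1 relative to NQO1 lie above the controls in every knockdown library, and PGD to ME1, AKR1C1 to AKR1C3 and FTL to FTH1 lie below them. The ratios are not corrected for GC content, after which FTL and FTH1 had log2 fold changes of -0.07 and -0.06.

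The other targets grouped with NQO1 went both ways. ABCC1, a pump that exports glutathione conjugates, had 112, 105 and 90.2 CPM in knockdown replicates 1 to 3, against 86.4, 79.0 and 79.9 CPM in control replicates 1 to 3 (log2 fold change 0.33, adjusted p = 0.0199). It is the one member with 2 rows in the table. With rows kept separate only its more abundant row was read, and the call was lost (0.28, adjusted p = 0.0899). The call of ABCC1 was also lost without knockdown replicate 2, control replicate 2 or control replicate 3 (adjusted p = 0.0853, 0.0754 and 0.0861). EPHX1, the microsomal epoxide hydrolase, had 170.4, 156 and 147 CPM in the knockdown and 183, 182 and 187 CPM in controls (-0.22, adjusted p = 0.0426). Although these groups did not overlap, leaving out each library except knockdown replicate 1 raised the adjusted p of EPHX1 to between 0.10 and 0.16, with rows kept separate it was 0.0541, and with the GC correction 0.0552 (log2 fold change -0.10). OSGIN1, an oxidative stress-induced growth inhibitor, had 61.4, 48.8 and 41.4 CPM in the knockdown and 56.9, 50.3 and 53.3 CPM in controls, which overlapped. Its log2 fold change was -0.08 (adjusted p = 0.679), and its direction differed between settings: 0.22 after GC correction (adjusted p = 0.00303) and -0.24 without knockdown replicate 1 (adjusted p = 0.0384).

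Of the 4 aldo-keto reductases, which reduce aldehydes, ketones and steroids with NADPH, 2 fell and none rose. AKR1C1 had 60.0, 61.0 and 58.1 CPM in knockdown replicates 1 to 3, against 92.6, 90.8 and 91.5 CPM in control replicates 1 to 3. The replicates of each group lay within 3 CPM of each other, and AKR1C1 fell by 34.9% with an adjusted p of 9.25e-05 (log2 fold change -0.62, SE 0.07). AKR1C2, the least abundant member, had 4.59, 5.37 and 5.81 CPM in the knockdown and 9.45, 8.08 and 7.86 CPM in controls (-0.69, SE 0.15, adjusted p = 0.00725). AKR1C3 had 31.9, 31.5 and 32.9 CPM in the knockdown and 34.6, 34.7 and 38.8 CPM in controls, below without passing (-0.17, adjusted p = 0.177), and was called lower after GC correction (-0.29, adjusted p = 0.00280). These genes are related neighbours on chromosome 10, from 4963415 at AKR1C1 to 5107686 at AKR1C3, and reads of similar stretches can be assigned to the wrong gene, so their single values are uncertain. Their sum does not depend on how reads were split among the 3: it was 3362, 3277 and 3384 counts in knockdown replicates 1 to 3 and 4715, 4202 and 4536 counts in control replicates 1 to 3 (log2 fold change -0.49, SE 0.07, adjusted p = 3.06e-04). The count ratio of AKR1C1 to AKR1C3 averaged 1.86 ± 0.087 in the knockdown and 2.55 ± 0.17 in controls (SD, n = 3 each). AKR1B1, aldose reductase, had 191, 173 and 169 CPM in the knockdown and 174, 169 and 174 CPM in controls, with an interval of -0.11 to 0.19 log2 units.

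The NADPH enzymes also divided. PGD, the oxidative pentose phosphate enzyme that makes NADPH from 6-phosphogluconate, fell to 134, 131 and 128 CPM in knockdown replicates 1 to 3, against 167, 173 and 177 CPM in control replicates 1 to 3 (log2 fold change -0.40, SE 0.07, adjusted p = 0.00121). ME1, the cytosolic malic enzyme that makes NADPH from malate, had 56.9, 72.5 and 67.3 CPM in the knockdown and 43.9, 49.8 and 53.0 CPM in controls (0.42, SE 0.10, adjusted p = 0.0125). Neither gene's groups overlapped, and PGD to ME1 counts stood at 2.02 ± 0.30 in the knockdown and 3.54 ± 0.24 in controls (SD, n = 3 each). The call of ME1 was lost without knockdown replicate 2 (adjusted p = 0.0797) and without control replicate 1 (adjusted p = 0.0682). TKT and TALDO1 belong to the non-oxidative branch, which returns pentoses to glycolysis. TKT had 1045, 858 and 817 CPM in the knockdown and 1096, 999.8 and 1055 CPM in controls, where knockdown replicate 1 overlapped the controls and the other two lay below (-0.21, adjusted p = 0.0963). Without that library TKT was called lower (-0.32, adjusted p = 3.89e-04), and with the replicate block likewise (adjusted p = 0.0249), whereas GC correction gave -0.03. TALDO1 had an interval of -0.20 to 0.13, and PGD to TALDO1 counts stood at 0.629 ± 0.041 in the knockdown and 0.808 ± 0.021 in controls.

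Glutathione peroxidases and transferases use glutathione to remove peroxides and to conjugate electrophiles, and 2 of these 5 members fell. GPX1, the cytosolic peroxidase, had 262, 206 and 186 CPM in knockdown replicates 1 to 3, against 336, 282 and 307 CPM in control replicates 1 to 3 (log2 fold change -0.50, SE 0.12, adjusted p = 0.00966). Knockdown replicate 1 was the highest of its group, and all 3 lay below the controls. GPX1 has a GC content of 64.2%, and after correction its log2 fold change was -0.17 (adjusted p = 0.00110). GSTP1, the abundant pi-class transferase, had 319, 258 and 242 CPM in the knockdown and 347, 338 and 346 CPM in controls (-0.33, adjusted p = 0.0219). After GC correction the call was lost (-0.01, adjusted p = 0.836), and the adjusted p of GSTP1 was 0.104 without knockdown replicate 2 and 0.058 to 0.084 without a control library. GPX4, which reduces lipid hydroperoxides in membranes and so guards against ferroptosis, had 106, 96.0 and 80.7 CPM in the knockdown and 95.6, 90.7 and 96.0 CPM in controls. Its groups overlapped with a log2 fold change of 0.00 (interval -0.21 to 0.21). It had the highest GC content of the module, 65.2%, and was called higher after correction (0.36, adjusted p = 4.66e-06). GPX8, a peroxidase of the endoplasmic reticulum, and GSTM3, a mu-class transferase, had intervals of -0.15 to 0.26 and -0.20 to 0.17.

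Among the peroxiredoxins, catalase and superoxide dismutases, 2 of 7 rose and 1 fell. SOD2, the manganese superoxide dismutase of mitochondria, had 51.0, 53.9 and 55.0 CPM in knockdown replicates 1 to 3, against 43.0, 41.9 and 44.4 CPM in control replicates 1 to 3 (log2 fold change 0.31, adjusted p = 0.0140). PRDX1, the cytosolic peroxiredoxin that SRXN1 repairs, had 316, 308 and 349 CPM in the knockdown and 274, 277 and 290.1 CPM in controls (0.21, adjusted p = 0.0421). CAT, catalase, fell to 63.5, 63.1 and 71.3 CPM in the knockdown, against 79.0, 80.6 and 79.5 CPM in controls (-0.27, adjusted p = 0.0228). None of the 3 overlapped, but each call was lost without single libraries, which also leaves fewer cultures for the test. On leaving out 1 library the log2 fold change was 0.29 to 0.34 for SOD2, 0.16 to 0.25 for PRDX1 and -0.33 to -0.24 for CAT. The adjusted p was 0.059 to 0.069 for SOD2 without knockdown replicate 2, control replicate 1 or control replicate 2, and 0.080 to 0.12 for CAT without knockdown replicate 2 or any control library. For PRDX1 it was 0.080 to 0.15 on leaving out each library except knockdown replicate 1, and 0.0520 with rows kept separate.

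The other 4 genes of this role did not pass. PRDX6, a peroxiredoxin that uses glutathione, had 208, 201 and 208 CPM in knockdown replicates 1 to 3, against 212, 229 and 227 CPM in control replicates 1 to 3, below without passing (-0.12, adjusted p = 0.219). SOD1, the cytosolic copper-zinc dismutase, was also below (-0.20, interval -0.36 to -0.03), and PRDX2 and the mitochondrial PRDX3 overlapped (-0.21 and -0.07). After GC correction PRDX3, PRDX6 and SOD1 were called lower (-0.19, -0.19 and -0.26, adjusted p = 0.00129, 5.50e-04 and 5.79e-05). PRDX2 was called lower without knockdown replicate 1 (-0.27, adjusted p = 0.00803) but not after GC correction (-0.02, adjusted p = 0.794), and SOD1 without knockdown replicate 3 (-0.24, adjusted p = 0.0455).

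The ferritin chains were the most abundant members per length. Divided by the length of its reference transcript, FTL averaged 2237 CPM per kb in the knockdown and 2577 in controls, and FTH1 averaged 1927 in the knockdown and 1996 in controls. NQO1, next in order in controls, averaged 289 CPM per kb in the knockdown and 516 in controls. Ferritin stores iron, and NRF2 is known to raise both chains, while iron controls them mainly at translation. FTL, the light chain, had 2148, 1931 and 1813 CPM in knockdown replicates 1 to 3, against 2248, 2247 and 2293 CPM in control replicates 1 to 3 (log2 fold change -0.20, adjusted p = 0.0449). Its call was lost after GC correction (-0.07, adjusted p = 0.104), with rows kept separate (adjusted p = 0.0646) and on leaving out each library except knockdown replicate 1 (adjusted p = 0.11 to 0.16). FTH1, the heavy chain with ferroxidase activity, had 2495, 2356 and 2253 CPM in the knockdown and 2448, 2448 and 2464 CPM in controls, which overlapped (-0.05, interval -0.18 to 0.08). The count ratio of FTL to FTH1 averaged 0.828 ± 0.029 in the knockdown and 0.922 ± 0.0070 in controls (SD, n = 3 each). It is not corrected for GC content, and after that correction the 2 chains had similar log2 fold changes, -0.07 for FTL and -0.06 for FTH1. RefSeq lists 27 FTH1 and 20 FTL pseudogenes by symbol, so reads shared with such copies make both values uncertain. HMOX1, haem oxygenase, which BACH1 is known to repress, had 25.9, 23.9 and 21.5 CPM in the knockdown and 22.4, 19.1 and 22.3 CPM in controls. It overlapped (0.16, adjusted p = 0.306) and was called higher after GC correction (0.33, adjusted p = 0.00239).

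The promoters of the genes that moved apart were read for the letters of the antioxidant response element, because NRF2 acts through that element. RefSeq promoter windows, 250 bases before to 50 after a gene's start on GRCh38.p14, were found for 31 of the 41 members. They were searched on both strands for TGACNNNGC, that is TGAC, any 3 bases and GC. Where the letters begin with TGACTCA they also spell the AP-1 site. The element was present in the windows of 7 members, EPHX1, GCLM, GSTP1, KEAP1, ME1, PGD and TXNRD1, or 22.6% of those with a window. This compares with 19.2% of tested genes with a window and 16.1% of all genes with a window, where any window of a gene could hold it. Counted by single window, the element was in 13.3% of all 35116. By call it was in 3 of 6 members that rose, 3 of 9 that fell and 1 of 16 not called, so it occurred in both directions. The 150 bases before the start are shown for 3 genes that rose (GCLM, chr1:93909431-93909580, minus strand; ME1, chr6:83431052-83431201, minus strand; TXNRD1, chr12:104215629-104215778, plus strand) and 2 that fell (GSTP1, chr11:67583662-67583811, plus strand; NQO1, chr16:69726561-69726710, minus strand). Capitals mark the element where it lies wholly inside these 150 bases, and each line runs 5′ to 3′ along the gene's strand.
GCLM: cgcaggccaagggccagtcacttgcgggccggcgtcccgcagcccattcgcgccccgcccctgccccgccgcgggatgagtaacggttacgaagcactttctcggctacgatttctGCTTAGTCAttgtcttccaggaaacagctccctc
ME1: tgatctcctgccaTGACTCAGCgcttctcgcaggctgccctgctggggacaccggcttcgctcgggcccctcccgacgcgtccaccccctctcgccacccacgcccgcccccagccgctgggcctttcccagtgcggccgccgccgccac
TXNRD1: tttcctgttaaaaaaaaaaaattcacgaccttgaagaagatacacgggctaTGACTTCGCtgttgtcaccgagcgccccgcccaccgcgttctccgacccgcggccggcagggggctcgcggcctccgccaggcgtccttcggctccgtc
GSTP1: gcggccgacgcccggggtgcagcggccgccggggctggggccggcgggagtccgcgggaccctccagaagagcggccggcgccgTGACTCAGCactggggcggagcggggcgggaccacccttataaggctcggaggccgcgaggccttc
NQO1: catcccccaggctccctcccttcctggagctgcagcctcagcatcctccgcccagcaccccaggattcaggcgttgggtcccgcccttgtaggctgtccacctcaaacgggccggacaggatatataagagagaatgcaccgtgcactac
The first capital lies 34 bases before the start in GCLM, where the letters match on the opposite strand, 137 before it in ME1, 99 in TXNRD1 and 66 in GSTP1. Unmarked matches on the opposite strand begin 8 bases before the start in TXNRD1, running past the printed end, and at base 12 after the start in ME1. ME1, which rose, and GSTP1, which fell before GC correction, carry the same 9 letters TGACTCAGC, with the AP-1 letters inside them. NQO1 has no match to these letters in its window. Bases farther than 250 before the start were not searched, so an element there would not have been seen. A match is a description of the letters, and binding was not measured.

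The wider pathway, 84 further genes listed by role, held more falls than rises. Of the 79 tested, 10 rose, 24 fell and 45 did not pass, so 43.0% were called, against 26.1% of all genes. Rises made up 12.7%, near the background of 13% of genes higher, and falls 30.4%, against 13.1% of genes lower. The same backgrounds apply to the counts by role below. The median log2 fold change of the 79 genes was -0.07. SOD3, ME3, ALDH1L1, FTMT and ALDH3A1 had too few counts for the test. Cystine uptake and glutathione turnover held 4 falls among 7 genes. SLC7A11, the cystine and glutamate exchanger that feeds glutathione synthesis and a known target of both NRF2 and ATF4, had 148, 170.4 and 179.6 CPM in knockdown replicates 1 to 3, against 277, 275 and 235 CPM in control replicates 1 to 3 (log2 fold change -0.66, SE 0.09, adjusted p = 3.54e-04). CHAC1, which degrades glutathione and is a known ATF4 target, had 4.10, 4.03 and 2.43 CPM in the knockdown and 19.0, 17.7 and 15.4 CPM in controls (-2.30, adjusted p = 7.07e-06). Neither gene's groups overlapped. GGT7, of the gamma-glutamyltransferase family, averaged 68.6 ± 10.3 CPM in the knockdown and 107 ± 4.41 CPM in controls (-0.64, adjusted p = 8.95e-04, and -0.39 after GC correction). GGT1, the surface enzyme that breaks down extracellular glutathione, rose at a low level, with 110, 85 and 63 counts in the knockdown and 21, 17 and 35 counts in controls (1.75, adjusted p = 0.00347).

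Among the 14 tested further NADPH genes, 8 fell and ME2 rose. The mitochondrial folate enzymes MTHFD2 and ALDH1L2 fell most: MTHFD2 had 70.3, 76.3 and 79.9 CPM in knockdown replicates 1 to 3, against 154, 182 and 161 CPM in control replicates 1 to 3 (log2 fold change -1.13, adjusted p = 3.57e-06), and ALDH1L2, which makes NADPH from formyl-tetrahydrofolate, had 12.9, 15.2 and 13.6 CPM in the knockdown and 27.4, 32.3 and 29.3 CPM in controls (-1.09, adjusted p = 3.10e-05). Other falls included H6PD, RPIA, IDH1, IDH2 and NADK, chosen after their values were seen, with log2 fold changes of -0.37, -0.31, -0.42, -0.34 and -0.29. ME2, the mitochondrial malic enzyme, had 76.4, 85.6 and 95.8 CPM in the knockdown and 51.4, 64.7 and 61.1 CPM in controls (0.54, adjusted p = 0.00341), so that both tested malic enzymes, ME1 and ME2, rose.

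The 16 further glutathione enzymes had 4 rises and 4 falls. GLRX3, a glutaredoxin involved in iron-sulfur handling, had 110.0, 112 and 116 CPM in knockdown replicates 1 to 3, against 55.0, 63.2 and 60.4 CPM in control replicates 1 to 3 (log2 fold change 0.92, adjusted p = 8.73e-06). GLRX, the cytosolic glutaredoxin that removes glutathione from proteins, averaged 19.9 ± 2.56 CPM in the knockdown and 11.1 ± 1.45 CPM in controls (0.84, adjusted p = 9.17e-04). MGST1, a membrane-bound transferase, had 10.3, 11.3 and 11.4 CPM in the knockdown and 5.30, 6.74 and 7.16 CPM in controls (0.78, adjusted p = 0.00253). All 3 had knockdown libraries above every control. Of the 9 tested further thioredoxin and peroxide genes 4 fell and none rose. Among them was SESN2, a stress-induced sestrin, at 20.9 ± 3.73 CPM in the knockdown and 36.1 ± 4.06 CPM in controls (-0.79, adjusted p = 0.00155). SQSTM1, the autophagy receptor p62, which binds KEAP1 and is itself a known NRF2 target, had 1196, 1063 and 988 CPM in the knockdown and 855, 814 and 854 CPM in controls (0.36, adjusted p = 0.00430, and 0.55 after GC correction). It was the one called gene of 9 further NRF2 partners and regulators. The 7 tested further haem and iron genes held 1 rise and 1 fall, and the 17 oxidoreductase, conjugation and export genes 2 rises and 3 falls. SESN2 and SQSTM1 each sum 2 rows of the table and are uncertain for that reason.

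**Figure D4:**
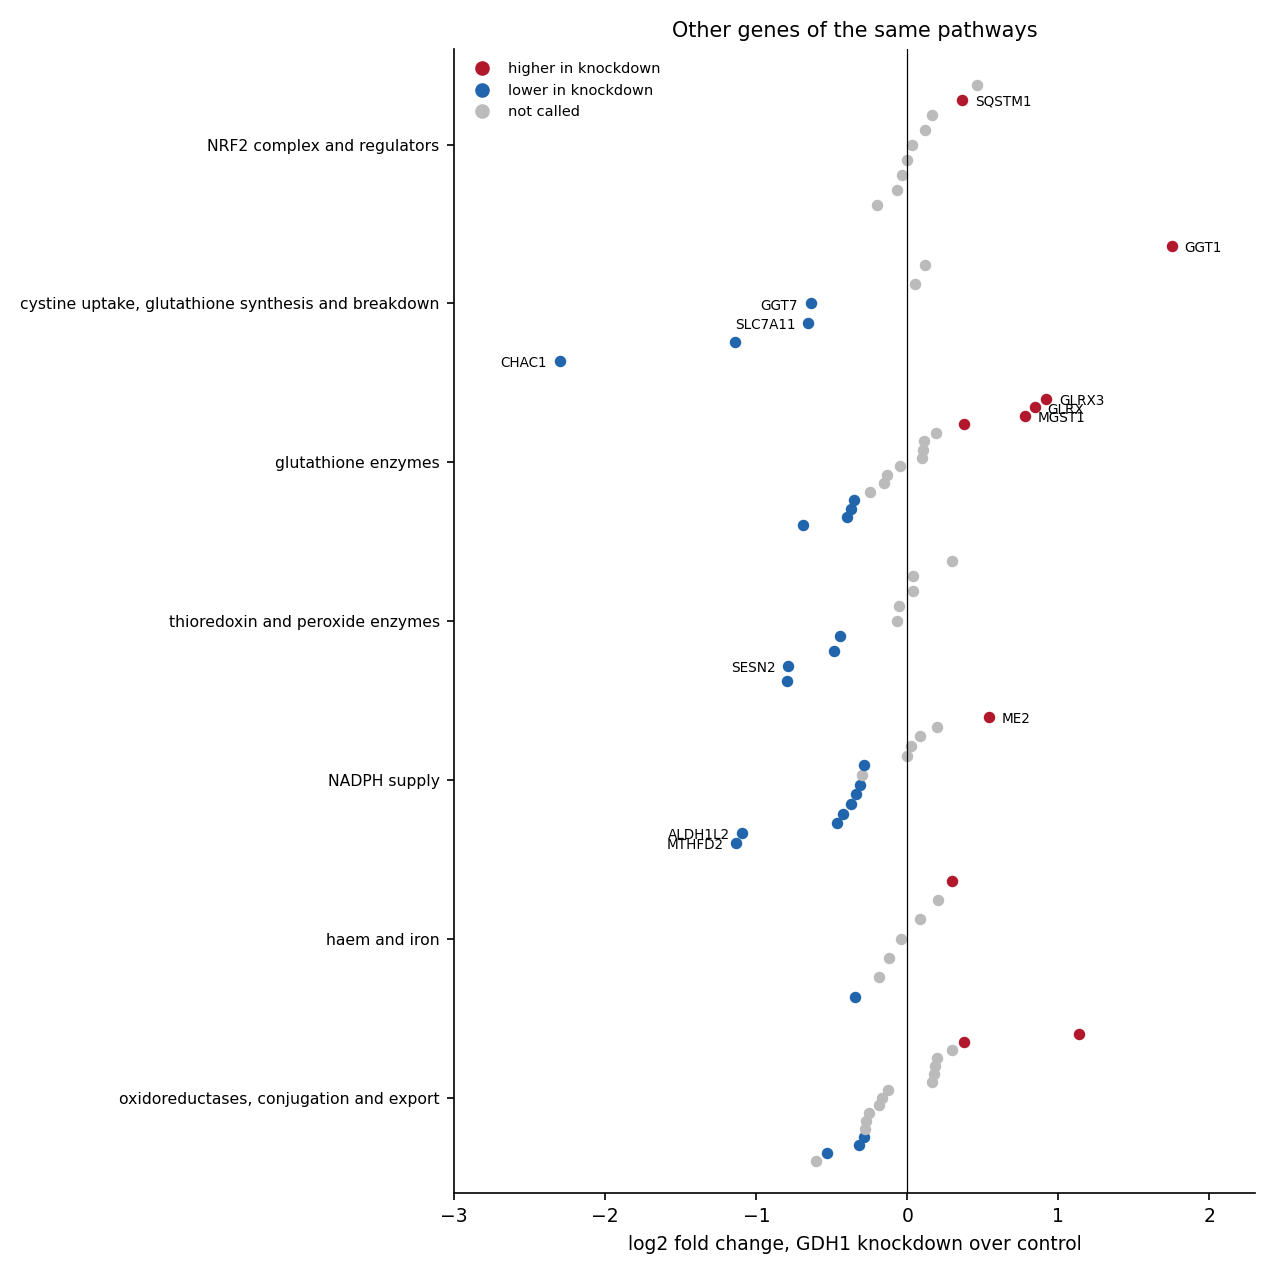
Log2 fold change (x axis, GDH1 knockdown over control) of the 79 tested further pathway genes in 7 role groups (y axis), with a point for each gene, red for the 10 that rose, blue for the 24 that fell and grey for those not called, and names for the 12 genes with the smallest p, at most 6 in each direction. CHAC1, MTHFD2 and ALDH1L2 lie farthest left of the named genes, and GGT1 lies farthest right.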

How the data were processed

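RNA from 6 cultures of LN229 cells, 3 with GDH1 knockdown and 3 controls, was compared. The authors deposited 1 table of whole-number counts per gene row with no normalization, as its values show. Per the submitters' processing notes the genome build was GRCh38.p14. The read aligner, the counter and its strandedness were not given in the sources used here, so overlapping and antisense genes cannot be told apart. Of 28196 rows, 4956 were newly assembled loci without a gene name, with 1.2 to 1.3% of the counts, and they stayed in library sizes and tests. The 1634 symbols with several rows were summed, which left 24976 symbols.

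Genes were filtered with filterByExpr (15638 kept), scaled by TMM (trimmed mean of M-values) and tested with edgeR 4.0.16 (robust glmQLFit, then glmQLFTest, two-sided; R 4.3.3). P-values were adjusted after Benjamini-Hochberg over these genes, with a threshold of 0.05. Standard errors were the size of the log2 fold change over the root of its F statistic. Totals of 31201100 to 35619614 counts and 3 cultures a group set the precision, with a biological coefficient of variation of 0.1106. The test was checked on simulated counts, with known changes planted in 50 genes of each size. It called 18% of genes planted at a log2 fold change of 0.3, 52% at 0.5, 90% at 1 and 100% at 2. Of the genes without a planted change, 10 were called. The alternatives were RLE or upper quartile scaling, no filter or at least 1 CPM in 3 libraries, DESeq2 1.42.0, voom of limma 3.58.1, a replicate block, rows of a symbol kept separate, each library left out, and a loess correction (span 0.5) for the GC content and length of GENCODE transcripts, alone and with the block. With rows kept separate, the row with the highest mean was read for each symbol. All rows were refitted there, so the adjusted p of a gene with 1 row could also change. GC content was known for 82.9% of tested genes and 100% of the members.

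The replicate numbers were checked for pairing: same-numbered libraries had correlations of deviations of 0.395, 0.113 and -0.111, so they were not taken as pairs. Members, lists and tests were chosen with earlier results of these data known. Values in every library are given for called members and for the most abundant uncalled member of each role. Of the further pathway genes, up to 6 that rose and 6 that fell with the smallest p are named. GCLC, MAFG, AKR1C3 and HMOX1, given in every library, and genes named only to complete a count were chosen after their values were seen. Some genes of the lists are not reported here.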

Additional observations from a re-analysis of the deposited data

How the results depend on the processing

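Over 16 alternatives for each of the 41 members, 551 values kept direction and call, 43 lost the call and 30 gained one in the same direction, and 32 changed sign, of which the 2 GC-corrected values of OSGIN1 passed the test. The cause was not tested. The call of GLUD1 and that of the summed AKR1C genes were kept throughout. With the GC correction 13 members and 16 further pathway genes rose, with or without the replicate block, and over all genes 3015 rose, or 3027 with the block. A fit without 1 library also had fewer cultures to test. Leaving out 1 library gave 4 to 9 members higher and 5 to 15 lower, with 15 lower without knockdown replicate 1. It gave 7 to 13 further genes higher and 15 to 28 lower, the 15 without knockdown replicate 2 or control replicate 3. Over all genes it gave 1161 to 2978 higher and 1053 to 3258 lower. The lowest of these were without control replicate 3 for genes higher and without control replicate 1 for genes lower, and the highest were without knockdown replicate 1. Without knockdown replicate 2 there were 1190 higher and 1135 lower, without control replicate 1 there were 1163 higher, and without control replicate 3 there were 1069 lower.

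Signs changed only in members that the test had not called. With the GC correction NFE2L2 was -0.049, KEAP1 0.060, BACH1 -0.042, GSS 0.024, GPX8 -0.096, TALDO1 0.089 and OSGIN1 0.222 on the log2 scale. With the correction and a replicate block these were -0.049, 0.060, -0.042, 0.024, -0.097, 0.089 and 0.221. GPX4 was -2.48e-04 with RLE scaling, -2.39e-04 with DESeq2, -0.0085 with voom and -0.0075 with the replicate block. Leaving out 1 library gave ranges of -0.044 to 0.087 for NFE2L2, -0.084 to 0.035 for GGCT, -0.087 to 0.10 for GPX4, -0.044 to 0.12 for GPX8, -0.047 to 0.017 for GSTM3, -0.031 to 0.20 for TXNRD2, -0.098 to 0.029 for TALDO1, -0.011 to 0.078 for AKR1B1 and -0.24 to 0.045 for OSGIN1.

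The block on the replicate number, which does not pair these libraries, gave 9 members higher and 11 lower, 11 further genes higher and 28 lower, and 2269 genes higher and 2522 lower. Knockdown replicate 3 correlated best with control replicate 2 (0.491) and the other two with their own number. With 3 cultures a group an uncalled member may still differ, as the intervals show. Protein, NADPH and glutathione were not measured.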
